A study of Mus musculus with 30 samples.

Results

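The genes described here mark B cells and plasma cells, the antibody-forming arm of the immune system, and were measured by RNA sequencing in mouse lung tumours driven by K-RAS, a growth-signalling GTPase. The set holds 33 genes, given by name, of the 23284 gene rows in the deposited table. Of these, 32 were found under their own symbol and Mzb1 was found under an older name, 2010001M09Rik. The labels describe 30 tumours from 15 mice, with 5 mice and 10 tumours in each of 3 groups, and 2 tumours from each mouse. Mice were Untreated, NAC-treated or Vitamin E-treated. All groups share the K-RAS-driven tumour model. Strain, age, dose and the allele or Cre that started the tumours are not given in the labels used here.

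A B cell carries an antigen receptor whose signalling subunits are Cd79a and Cd79b, and Pax5 and Ebf1 are the transcription factors that hold the B cell programme. Cells that meet antigen can become plasma cells, which switch on Prdm1 and Irf4 and secrete antibody with the help of Igj, the chain that joins antibody units, and Mzb1, a chaperone of antibody assembly. Cxcl13, made by stromal and follicular cells, draws cells with its receptor Cxcr5 into B cell follicles, also in the lymphoid aggregates that form in inflamed lung. Several of the 33 genes are known outside these cells too: Btk in myeloid cells, Sdc1 in epithelium, Ccr7 and Spn in T cells, and Spib in plasmacytoid dendritic cells.

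The columns of the table are named by a letter, A, B or C, a digit from 1 to 5 and a further digit, 0 or 1, and no source used here says which treatment a letter stands for. Tumours are therefore called A10 to C51, and no treatment is attached to any value. The letter plus the digit after it was read as 1 mouse, giving 15 pairs of tumours such as A10 and A11 (pair A1). This reading comes from the shape of the names, which matches the 2 tumours of each mouse in the labels, and is stated nowhere. Values are read counts that the authors had scaled to a common depth. Between 18322631 and 24408946 reads per tumour stood behind them. Index sequences in the column names recur in the same order, which divides the columns into runs of 12 (pairs A1 to A5 and B1), 12 (B2 to B5, C1 and C2) and 6 (C3 to C5). Nothing states that these runs were processed apart. The letter A lies wholly in the run that holds only 1 other pair, so letter and run can largely not be told apart.

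RefSeq promoter sequences (mouse build GRCm38.p6, 250 bases before to 50 after the start site) were matched for 26 of the 33 genes, with 30 promoters in all. They are shown for 6 of them: Cd79a, whose level ranks the tumours below, Faim3 and Cd37, among the 3 members whose levels followed it most closely, Fcrla and Blnk, which were higher under letter A than under both other letters, and Cd22, which did not follow it. Capitals mark matches, on either strand, to ATGCAAAT (the octamer that Pou2f2 and Pou2af1 read), CCCNNGGGA (Ebf1), GAGGAA (the PU.1 and Spib family) and CAGGTG (an E-box read by E2A).
Cd79a, chr7:24897247-24897546, plus strand: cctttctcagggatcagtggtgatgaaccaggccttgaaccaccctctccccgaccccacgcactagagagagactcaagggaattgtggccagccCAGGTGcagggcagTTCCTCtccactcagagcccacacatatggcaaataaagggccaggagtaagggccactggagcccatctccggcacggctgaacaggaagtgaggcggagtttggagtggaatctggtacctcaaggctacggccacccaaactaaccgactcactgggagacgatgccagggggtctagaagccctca
Faim3 (Fcmr in RefSeq), chr1:130865527-130865826, plus strand: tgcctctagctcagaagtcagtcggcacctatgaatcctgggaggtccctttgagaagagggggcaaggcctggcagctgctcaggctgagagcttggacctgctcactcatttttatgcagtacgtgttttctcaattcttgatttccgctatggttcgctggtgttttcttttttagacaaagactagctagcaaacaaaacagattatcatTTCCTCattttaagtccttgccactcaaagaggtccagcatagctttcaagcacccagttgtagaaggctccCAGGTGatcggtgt
Cd37, chr7:45238790-45239089, minus strand: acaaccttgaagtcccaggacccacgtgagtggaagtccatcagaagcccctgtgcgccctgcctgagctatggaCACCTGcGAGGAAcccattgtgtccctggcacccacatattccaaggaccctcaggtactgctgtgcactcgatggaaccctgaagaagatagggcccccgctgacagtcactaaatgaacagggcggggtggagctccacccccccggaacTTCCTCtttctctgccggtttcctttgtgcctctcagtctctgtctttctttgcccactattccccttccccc
Fcrla, chr1:170927534-170927833, minus strand: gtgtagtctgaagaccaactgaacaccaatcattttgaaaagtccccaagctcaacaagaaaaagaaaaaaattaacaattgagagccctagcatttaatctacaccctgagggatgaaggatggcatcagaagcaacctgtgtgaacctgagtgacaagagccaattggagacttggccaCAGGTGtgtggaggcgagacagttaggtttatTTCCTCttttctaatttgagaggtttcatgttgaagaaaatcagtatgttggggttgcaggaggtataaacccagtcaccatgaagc
Blnk, chr19:40994172-40994471, minus strand: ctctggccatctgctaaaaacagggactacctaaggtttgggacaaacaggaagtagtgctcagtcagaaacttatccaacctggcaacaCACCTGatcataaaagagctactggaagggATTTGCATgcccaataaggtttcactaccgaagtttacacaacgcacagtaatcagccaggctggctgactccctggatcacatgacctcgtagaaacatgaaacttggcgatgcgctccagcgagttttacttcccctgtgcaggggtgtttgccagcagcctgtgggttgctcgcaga
Cd22, chr7:30878979-30879278, minus strand: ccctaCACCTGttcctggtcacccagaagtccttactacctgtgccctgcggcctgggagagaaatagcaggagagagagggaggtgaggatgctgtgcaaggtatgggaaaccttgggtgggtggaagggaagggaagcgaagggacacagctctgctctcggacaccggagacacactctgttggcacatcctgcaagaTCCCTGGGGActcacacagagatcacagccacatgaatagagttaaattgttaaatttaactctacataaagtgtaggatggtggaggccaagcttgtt

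The Cd79a promoter held the E-box at position -154 from its start site (the leftmost base of the match) and the GAGGAA core at -140. Faim3, Cd37 and Fcrla also held both, with the GAGGAA core at -36 in Faim3 and -37 in Fcrla. Blnk held the octamer at -130 and the E-box at -160. Cd22 held overlapping matches to CCCNNGGGA at -49 and -48. Over the members' 30 promoters, GAGGAA stood in 14 (46.7%), against 28.3% of all 32851 promoters in the table, and CAGGTG in 12 (40%), against 20.2%. The octamer stood in 2 (6.67%, against 1.74%) and CCCNNGGGA in 2 (6.67%, against 6.56%). These are matches of letters only, and no binding was measured.

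B cell and plasma cell genes were highest in a few tumours. Cd79a ranged from 29.3 in C41 to 522 in A11, with a median of 77.5 over the 30 tumours. After A11 came A51 at 373, A50 at 366, A20 at 356, A21 at 169 and B50 at 136, so the leading 4 stood well above the rest. Of the 33 members, 29 had their highest value in A11, A20, A50 or A51, as did 24.2% of all genes tested. A11 alone was highest for 17 members and for 12.9% of all genes. At least 4 of the 5 tumours highest for Cd79a were also among the 5 highest for 26 members, Cd79a included, against 4.66% of all genes. Cd22, Btk and Sdc1 shared none of the 5.

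**Figure D1:**
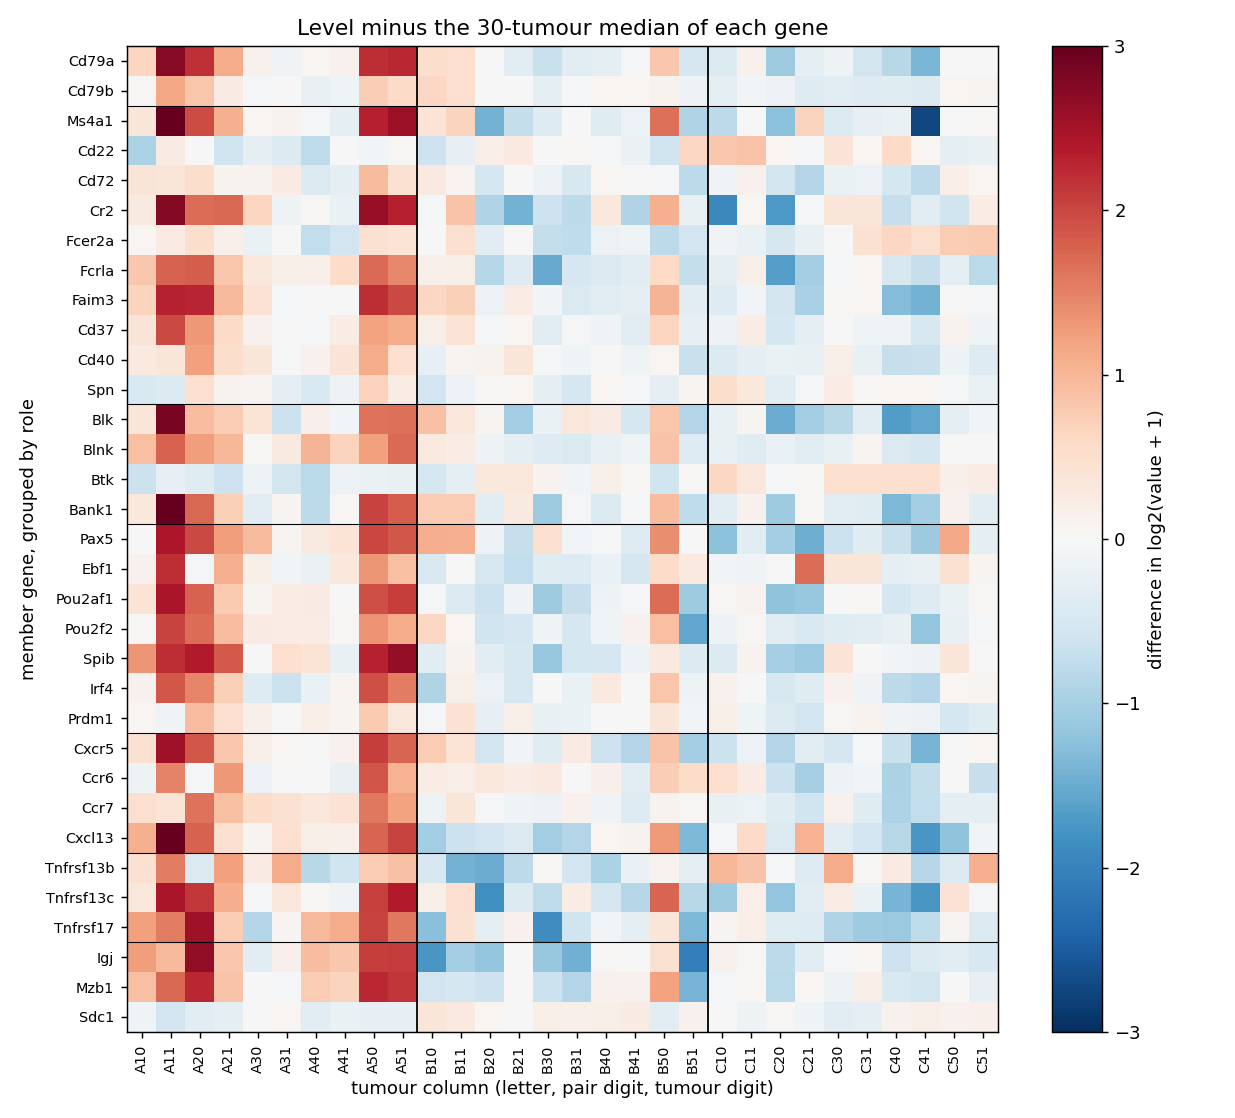
Level of each of the 33 genes (rows, grouped by role) in each of the 30 tumours (columns), as log2(value + 1) minus the gene's 30-tumour median. Red is above the median and blue below, and black lines part the roles and the 3 column letters. A11, A20, A50 and A51 are red for most rows. Btk and Sdc1 lie below their medians in each of these tumours, and Cd22 lies near its median (0.95 times in A50 to 1.18 times in A11). Spn and Prdm1 lie below theirs in A11, as do Ebf1, Ccr6 and Tnfrsf13b in A20.

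The 4 leading tumours were not all alike in which members stood highest above their medians. In A11, the B cell surface gene Ms4a1 (CD20) was 17.03 times its 30-tumour median, the follicle chemokine Cxcl13 15.7 times and the receptor adaptor Bank1 11.4 times. Among the plasma cell genes there, Irf4 was at 3.73, Mzb1 at 3.31, Tnfrsf17 at 3.22 and Igj at 1.97 times the median, and Prdm1, the plasma cell regulator, stood at 0.93 and Sdc1 at 0.67. In A20, Tnfrsf17 was at 6.58, Igj at 6.36 and Mzb1 at 4.80 times the median, Irf4 at 2.79, Prdm1 at 1.92 and Sdc1 at 0.79. Among the B cell genes in A20, Faim3 (5.00), Cd79a (4.59) and Tnfrsf13c (4.51) were about as high as Mzb1, whereas Ms4a1 was at 3.97. Other B cell genes were raised less there or not at all, such as Blk at 1.94, Cd79b at 1.77, Cd22 at 1.00, Ebf1 at 0.95 and Tnfrsf13b at 0.69. Cxcl13 was at 3.43 in A20. A50 and A51, which form 1 pair, were alike: Cd79a was 4.72 and 4.81 times the median and Igj 4.20 and 4.30 times. Ms4a1, Cxcl13 and Bank1 were thus higher in A11 than in A20, and Tnfrsf17, Igj and Mzb1 were higher in A20.

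Counted over the set, 23 of the 33 genes were at least 2-fold above their median in A11, 21 in A20, 24 in A50 and 22 in A51. Over all genes these shares were 11.4%, 3.27%, 4.30% and 5.80%. In A21 the count was 9 and in B50 it was 8 (2.53% and 3.08% of all genes), with Tnfrsf13c at 3.48, Pou2af1 at 3.20 and Ms4a1 at 3.20 times the median. C41 stood at the other end, with 10 members at least 2-fold below the median, as were 3.32% of all genes, and none above. Ms4a1 there was 5.24, which rests on 5 reads.

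Markers of other cells moved with these tumours in part. Values were summed over 10 T cell genes, so that abundant genes weighed most. By this sum A20, A50 and A51 stood at 2997, 3100 and 2506, above the 30-tumour median of 1520. A11 stood at 1382, the lowest of the letter A tumours. The sum of 5 natural killer cell genes was 1129 in A20, 1013 in A50 and 739 in A51, and 228 in A11, with a median of 274. Ccl19, a chemokine of T cell zones, was highest in A20, at 41.8 against a median of 2.86. The value of Ccl21a was 0 in all 30 tumours. That alone does not show absence of its RNA, since how reads were assigned to genes was not examined. In bulk tumours, a change in the number of cells and a change in RNA per cell cannot be told apart. Whether any tumour held a lymphoid aggregate was not tested.

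The 2 tumours of a pair could differ as widely as tumours of different pairs. In pair A1, 19 members were at least 2-fold higher in A11 than in A10 and none lower, against 7.18% and 1.33% of all genes. Ms4a1 was 52.8 in A10 and 691 in A11, a 12.9-fold ratio on the log2(value + 1) scale, Cxcl13 was 197 and 1475, and Cd79a was 122 and 522. In pair B5, 17 members were at least 2-fold lower in B51 than in B50 and 1 was higher, against 5.86% and 2.05% of all genes. There Pou2af1, the octamer coactivator, was 234 in B50 and 34.3 in B51, Mzb1 was 234 and 37.8, and Igj was 7138 and 1247. In the other pairs, at most 8 members changed by 2-fold in 1 direction, the most in pair A2. There, 8 members were lower and 3 higher in A21 than in A20, against 1.43% and 1.75% of all genes.

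Despite those pairs, tumours of a pair lay closer than tumours of different pairs under the same letter. The median difference within a pair was 0.28 on the log2 scale for the members and 0.61 between pairs of a letter, against 0.14 and 0.19 for all genes. All 33 members had the smaller median within pairs, as did 78.9% of all genes. A moderated F-test in limma, of pair within letter, called 9 members at an adjusted p of 0.05 or less, 27.3% of the set against 20.6% of all genes: Ccr7, Cd72, Faim3, Fcer2a, Irf4, Prdm1, Sdc1, Spib and Spn. Fcer2a, the low-affinity IgE receptor, had the strongest pair effect (adjusted p = 0.00035, correlation of pair mates 0.85), and Spib, a transcription factor of B cells and plasmacytoid dendritic cells, came next (0.0014 and 0.79). Cd79a missed the threshold (adjusted p = 0.0504). The median correlation of pair mates was 0.33 over the members and 0.36 over all genes.

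**Figure D2:**
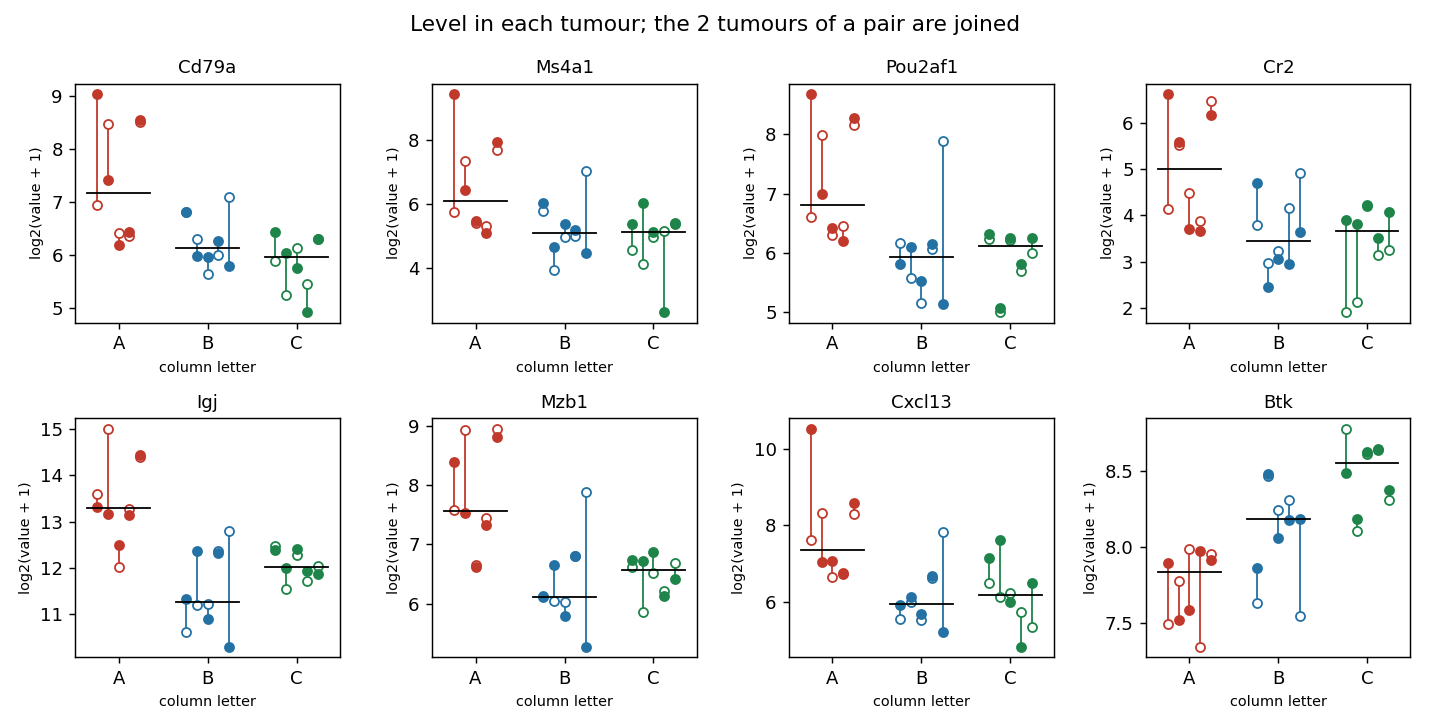
Level of 8 genes in each tumour, as log2(value + 1), by column letter; the 2 tumours of a pair are joined, open points are tumours with last digit 0 and filled points those with 1, and black bars are the median of the 10 tumours of a letter. Long lines mark pair A1 for Ms4a1 and Cxcl13, and pair B5 for Pou2af1 and Mzb1.

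Most members were called higher under letter A than under C, and a smaller number than under B. Differences were taken between means of the 5 pairs per letter on the log2(value + 1) scale and tested with limma over 15210 genes, with Benjamini-Hochberg adjustment. All 33 members passed the filter on low values. The F-test over the 3 letters called 23 of the 33, 69.7%, against 42.5% of all genes. Compared with letter C, 24 members (72.7%) were higher under A, against 22.6% of all genes, and Btk and Cd22 (6.06%) were lower, against 20.4%. Compared with letter B, 11 (33.3%) were higher under A, against 7.43%, and Sdc1 alone (3.03%) was lower, against 4.82%. Both comparisons use the same letter A tumours. Between B and C, no member was called, against 15.0% of all genes. In limma, 3 members had an unadjusted p of 0.05 or less, against 31.1% of all genes. In edgeR the count was 2, against 32.1%, and no member was called after adjustment, against 16.4%.

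The median member was 0.90 higher under A than under B and 1.21 higher than under C, where the median gene differed by 0.00 and 0.01. Between B and C, the median member differed by 0.16. Of the 5 letter A pairs, 3 stood above all others in Cd79a. Its pair means were 7.94 to 8.53 in A1, A2 and A5, and 5.19 to 6.81 in the other 12 pairs, A3 and A4 among them. Pairs A1, A2 and A5 were chosen for their high Cd79a, so smaller differences without them follow from the choice. Without them, limma called no member between A and B, where 0% of all genes were called. There, 4 members had an unadjusted p of 0.05 or less, beside 8.23% of all genes. Between A and C, limma called Btk and Ccr7, where 6.42% of all genes were called. The median member then differed by 0.16 and 0.46, with 22 and 25 of the 33 higher under A. The share of all genes higher under A was not kept for this fit. With all pairs, 30 and 28 members were higher, beside 50.1% and 51% of all genes. Many of the 12 A to B calls were also lost when 1 pair was left out. None remained without A1, A2, A5, B3 or B4, 1 without B2, 3 without A4 and 8 without B1. Without B5, C1 or C2, 11 remained. Shares of all genes called between A and B or A and C were not kept for these refits. Whether members lost more calls than other genes can therefore not be said. The differences themselves changed less: where the call was lost, Igj differed by 1.72 to 2.15 and Blnk by 0.92 to 1.08, and adjusted p over the lost calls was 0.0501 to 0.106 in limma. In contrast, 21 to 27 members were called between A and C when any 1 pair was left out. The A to C calls that depended on 1 pair were those of Bank1 and Cd79b (lost without A1, A2, A5 or C4), Ccr6 (A1, A2, A5, C2 or C4), Prdm1 (A2, A5, C2 or C5) and Cd22 (A1, A2, A3, A4, C1 or C4), with adjusted p of 0.0506 to 0.0771 in limma. With the index run as a covariate, limma called no member in either comparison (0.625% and 3.91% of all genes were called). At an unadjusted p of 0.05 or less stood 6 and 1 members, against 18.2% and 22.5% of all genes, and the median member differed by 0.57 and 0.77. These p-values measure the spread among these tumours and mice. Tested on whole reads with edgeR, 19 members were called between A and B, against 15.1% of all genes, and 28 between A and C, against 43.6%.

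**Figure D3:**
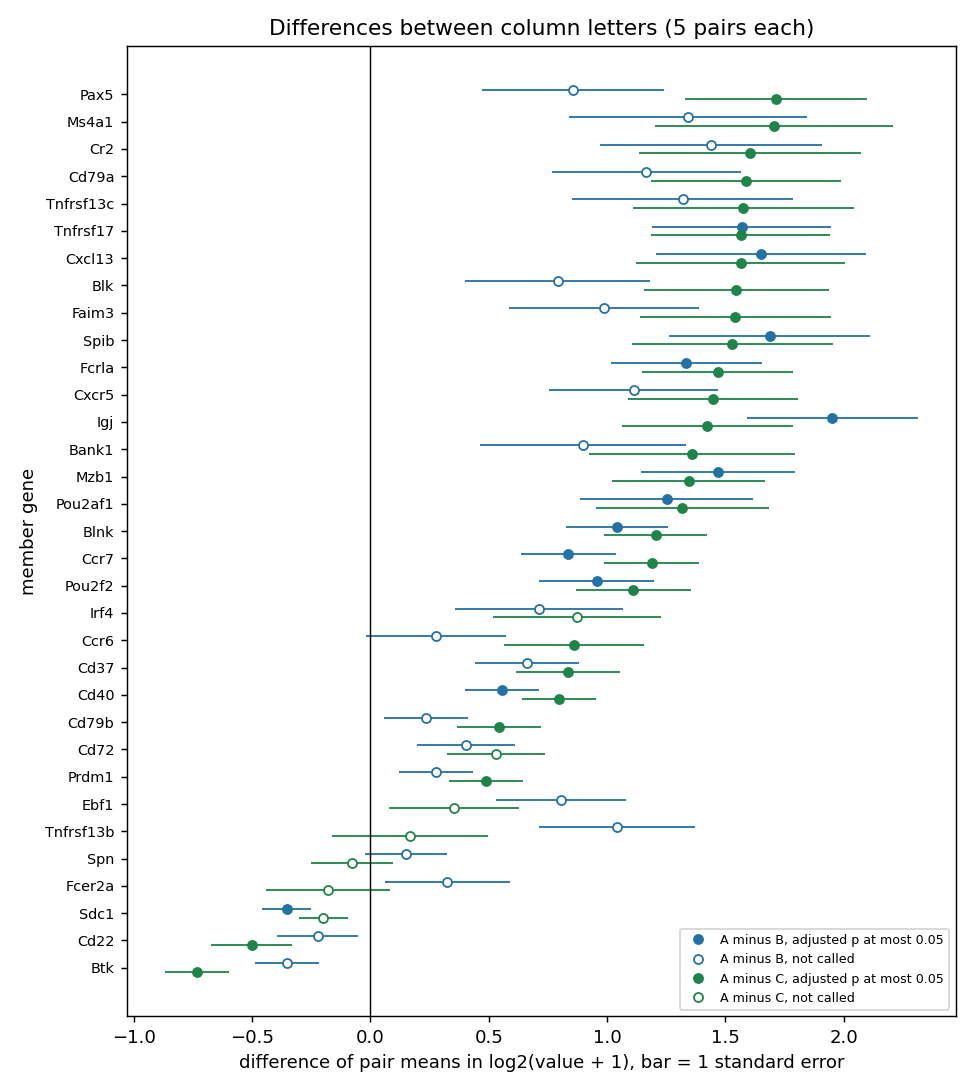
Difference of pair means between letters (A minus B in blue, A minus C in green) for each of the 33 genes, in log2(value + 1), with bars of 1 standard error and filled points for an adjusted p of 0.05 or less. Most genes lie right of 0. Btk, Cd22 and Sdc1 lie left of it in both comparisons, and Fcer2a and Spn in A minus C.

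The subunits of the antigen receptor differed in how far they moved. Cd79a was 72.1, 145 and 522 (lowest, median and highest of 10 tumours) under A, 48.6, 69.5 and 136 under B, and 29.3, 61.2 and 85.2 under C. The A and C ranges overlapped only through the low tumours of A3 and A4. The A to C difference was 1.59 ± 0.40 (SE), a 3.00-fold ratio (limma adjusted p = 0.0066), and the A to B difference of 1.17 ± 0.40 did not pass (0.068). Cd79b was far flatter, at 413, 536 and 1091 under A and 362, 390 and 515 under C, with an A to C difference of 0.55 (adjusted p = 0.024) that turned to -0.047 with the index run as a covariate. Its A to B difference was 0.23 (adjusted p = 0.39).

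Among the 10 surface and co-receptor genes, 6 were higher under A than under C (Ms4a1, Cr2, Fcrla, Faim3, Cd37 and Cd40), 1 was lower (Cd22) and 3 were not called (Cd72, Fcer2a and Spn). Ms4a1, the target of CD20 antibodies, was 33.1, 69.3 and 691 under A, 14.5, 33.3 and 129.6 under B, and 5.24, 34.5 and 65.3 under C, so that the ranges overlapped widely. Its A to C difference was 1.71 ± 0.50 (SE; limma adjusted p = 0.0149) and its A to B difference 1.34 (0.088). Cr2, the complement receptor of mature B cells and follicular dendritic cells, was 11.6, 33.2 and 97.2 under A and 2.77, 11.8 and 17.6 under C (difference 1.60, adjusted p = 0.014). Fcrla, an Fc-receptor-like protein of B cells, was called against both other letters, at 61.6 to 198 under A against 18.7 to 83.4 under B and 16.7 to 62.2 under C (1.33, adjusted p = 0.029, and 1.47, 0.0031). Cd40, the receptor for T cell help, was 0.56 and 0.80 higher (0.038 and 0.0018).

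Faim3, the receptor for IgM, was 1.54 higher under A than C (limma adjusted p = 0.0079), and the tetraspanin Cd37 was 0.84 higher (0.0081). Cd22, a co-receptor that restrains B cell signalling, went the other way. It was 123, 210.0 and 282 under A, 155, 235 and 367 under B, and 198, 249 and 433 under C, with its 2 highest values in the pair C10 and C11. Its A to C difference was -0.50 (adjusted p = 0.029). Cd72, an inhibitory co-receptor, ranged from 52.3 to 188 over the 30 tumours, Fcer2a from 73.4 to 222 and the sialoglycoprotein Spn from 266 to 632. All 3 stayed within narrower ranges than Ms4a1.

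Of the 4 genes that pass on the receptor signal, 3 were higher under A than C and 1 was lower. Blnk, the adaptor that links the receptor to its kinases, was 104, 203 and 343 under A, 74.4, 88.9 and 183 under B, and 69.1, 86.3 and 107 under C, so that A barely overlapped C. The differences were 1.04 ± 0.22 against B (SE; limma adjusted p = 0.026) and 1.20 ± 0.22 against C (0.0011). The kinase Blk was 1.55 higher under A than C (0.0066) and the scaffold Bank1 1.36 higher (0.022), and neither passed against B. Btk, the kinase lost in X-linked agammaglobulinaemia, was 162 to 252 under A and 275 to 438 under C, with no overlap, and 186 to 357 under B. It was 0.73 lower under A than C (0.0013). The sum of 7 macrophage genes was also lower under A, with medians of 254946 in A, 329715 in B and 375938 in C. Lyz2 made up most of that sum, with a mean log2 level of 17.97 under A against 11.28 for Mrc1, the next highest. That level was close to those of the alveolar epithelial genes Sftpa1 (17.96) and Sftpb (17.92). The A to C difference was -0.49 for Lyz2, -0.44 for Sftpa1 and -0.48 for Sftpb. Which cells the Lyz2 reads came from was not tested. Taken singly, 6 of the 7 macrophage genes were called lower under A than C, against 20.4% of all genes. The part of these genes in the Btk difference was not tested.

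Of the 7 transcription factors, 5 were higher under A than C and 3 under A than B. Pax5, the B cell identity factor, was low throughout, at 7.70, 17.9 and 46.4 under A, 4.44, 7.73 and 22.1 under B, and 2.18, 4.56 and 18.2 under C. Its A to C difference of 1.72 ± 0.38 (SE; limma adjusted p = 0.0035) was the widest of all members, and its A to B difference was 0.86 (0.15). Pou2af1 was 72.4, 112 and 406 under A, 34.3, 60.6 and 234 under B, and 31.2, 68.5 and 79.2 under C (differences 1.25, adjusted p = 0.042, and 1.32, 0.011). Its partner Pou2f2, the octamer factor of B cells, ran from 23.1 to 96.1 under A and from 9.43 to 23.1 under C, just short of overlapping. Spib was 93.9, 336 and 683 under A, 49.5, 84.3 and 135 under B, and 50.1, 106 and 142 under C (1.69, adjusted p = 0.031, and 1.53, 0.011). Of 4 plasmacytoid dendritic cell genes, Tcf4 and Pacsin1 were also higher under A than under both other letters (Pacsin1 by 1.16 and 1.23), and the sum of the 4 ran from 1433 to 2456 under A, 1155 to 2199 under B and 1059 to 1561 under C. Tcf4 made up most of that sum, and none of the 4 genes was at 0 in any tumour. The lineage marker Siglech ran from 3.21 to 35.7 with a median of 17.3 over the 30 tumours. Their part in the Spib difference was not tested.

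The other transcription factors moved less. Prdm1 was 0.49 higher under A than C (limma adjusted p = 0.022). Irf4, which acts in B cells, plasma cells and T cells, ranged from 20.7 to 153 with its highest value in A50, and its A to C difference was 0.87 (0.061). Ebf1 ranged from 5.55 to 49.7, highest in A11 and next in C21 at 33.8, and neither difference passed (0.81 against B, adjusted p = 0.066, and 0.35 against C, 0.31).

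All 4 chemokine genes were higher under A than C, and Ccr7 and Cxcl13 were higher than under B as well. Cxcl13 was 99.1, 165 and 1475 under A, 36.1, 60.8 and 228 under B, and 27.2, 71.5 and 195 under C. The A tumours other than A11 did not exceed 383, and the differences were 1.65 ± 0.44 (SE; limma adjusted p = 0.035) against B and 1.56 ± 0.44 (0.012) against C. Without pair A1 they were 1.32 (0.077) and 1.24 (0.028). Its receptor Cxcr5 was 1.45 higher under A than C (0.0060), and Ccr6, a receptor of mucosal lymphocytes, was 0.86 higher (0.031) on values of 3.27 to 30.3.

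Ccr7, the receptor that brings lymphocytes and dendritic cells into lymphoid tissue, had the smallest adjusted p of all members between A and C. It was 123, 139 and 300.3 under A, 74.0, 92.2 and 125 under B, and 50.7, 76.7 and 106 under C. Every A tumour was above every C tumour, and among the B tumours B11 alone reached the A range. Its differences were 0.84 ± 0.20 (SE; limma adjusted p = 0.029) and 1.19 ± 0.20 (0.00084), and the A to C call held without A1, A2 and A5 (0.84, adjusted p = 0.031). Of 10 T cell genes, 7 were higher under A than C, against 22.6% of all genes. Cd2 was lower (-0.67, limma adjusted p = 0.0014), and the median difference of the 10 was 0.94. The sum of the 10, in which abundant genes weigh most, had a median of 1613 under A and 1673 under C. Their part in the Ccr7 difference was not tested.

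The receptors for the survival factors BAFF and APRIL followed their cells' other genes to different degrees. Tnfrsf13c, the BAFF receptor of mature B cells, was 15.2, 28.6 and 95.0 under A, 3.88, 11.8 and 57.3 under B, and 4.19, 13.6 and 22.5 under C. It was 1.58 higher under A than C (limma adjusted p = 0.015), and 1.32 higher than under B (0.073, not called). Tnfrsf17, the plasma cell receptor BCMA, was 2.81, 14.9 and 39.8 under A, 0.93, 4.83 and 8.67 under B, and 2.25, 4.30 and 7.02 under C. It was higher under A by 1.57 ± 0.38 (SE; 0.029) and 1.56 ± 0.38 (0.0052). Tnfrsf13b (TACI) ranged from 0.97 to 15.1, with a difference of 1.04 against B (0.053) and 0.17 against C (0.70). Values this low rest on few reads, down to 1 read in B20 for Tnfrsf13b and in B30 for Tnfrsf17.

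Among genes of antibody secretion, Igj showed the largest A to B difference of all members. It was 4133, 10019 and 32860.4 under A, 1247, 2452 and 7138 under B, and 2989, 4133 and 5666 under C. A and B overlapped through A30 and A31, and 6 of the 10 B tumours lay below every C tumour. Igj was higher under A by 1.95 ± 0.36 (SE; 3.87-fold, limma adjusted p = 0.026) against B and 1.42 ± 0.36 (2.68-fold, 0.0068) against C. Mzb1 was 97.0, 187 and 490.4 under A, 37.8, 68.7 and 234 under B, and 56.8, 94.1 and 116 under C, with differences of 1.47 (0.026) and 1.34 (0.0052). Sdc1 (CD138), which marks plasma cells and also epithelium, did not share this pattern. It was 13593 to 21165 under A and 16379 to 25923 under B, and was 0.35 lower under A than B (0.043). Genes for the antibody constant regions were not analysed here.

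To ask how the members varied together apart from the high pairs, each gene was set against Cd79a over the 12 pairs other than A1, A2 and A5, with permutation tests (100000 resamples, two-sided) adjusted over 15209 genes. Faim3 was the only one of 32 members called (Pearson r = 0.94, permutation p = 3e-05, adjusted p = 0.046; Spearman rho = 0.82, p = 0.0017), 3.13% of the members against 0.0658% of all genes. No member was called with a negative r, against 0.0% of all genes. Without the 2 pairs farthest from the median, B1 and C4, r for Faim3 was 0.80 and the call was lost. It was lost as well with values centred within each letter, and over the 10 pairs of B and C, where r was 0.94. Below Faim3 came Bank1 at 0.92 (adjusted p = 0.093), Cd37 at 0.89 (0.081) and Blk at 0.88 (0.13).

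In all, 19 of the 32 members had an r of at least 0.5, against 15.4% of all genes, and the median r was 0.56 against 0.05. An unadjusted p of 0.05 or less was reached by 17 members and by 18.4% of all genes. The plasma cell genes varied, with r = 0.01 for Igj, 0.05 for Sdc1, 0.34 for Mzb1, 0.48 for Tnfrsf17, 0.48 for Irf4 and 0.53 for Prdm1. Without B1 and C4, Igj had r = 0.42 and Mzb1 0.62. Cxcl13 had r = 0.30. Btk (-0.62) and Cd22 (-0.48) had the lowest values. None of these passed after adjustment. The pairs share the letters, and the 12 hold 5 pairs each of B and C and 2 of A.

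**Figure D4:**
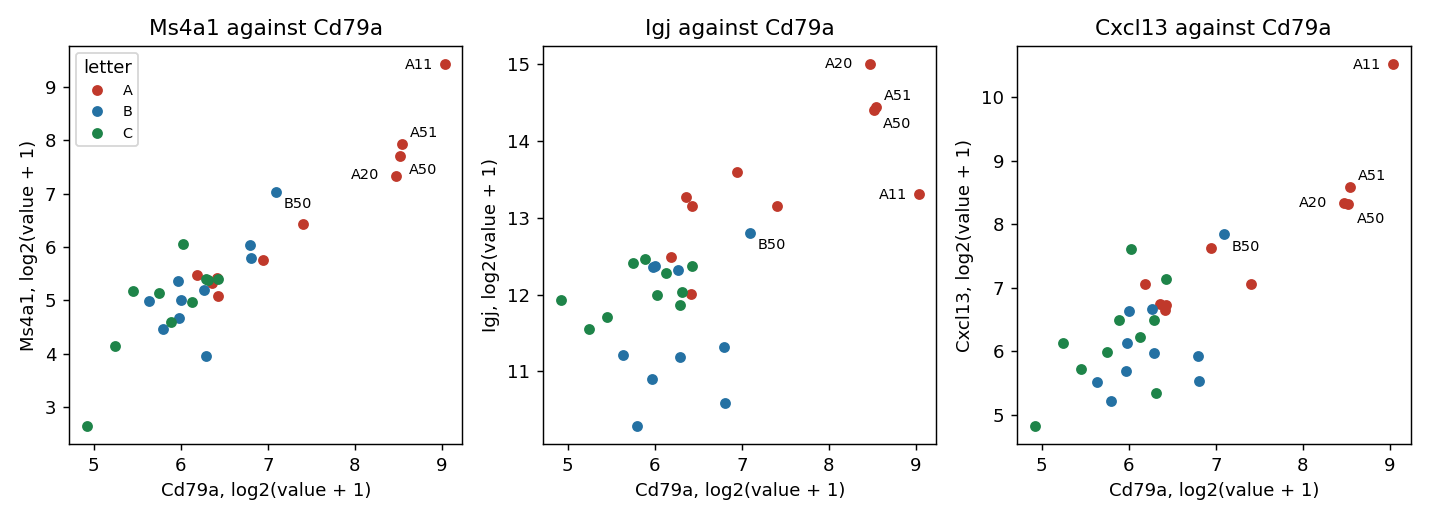
Ms4a1, Igj and Cxcl13 against Cd79a in the 30 tumours, all as log2(value + 1), coloured by column letter, with 5 tumours named. A11 lies highest for Ms4a1 and Cxcl13 and below A20, A50 and A51 for Igj.

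Genes outside the set gave a mixed picture. For the counts that follow, 22.6% of all genes were called higher under A than C, and 20.4% lower. Of 24 other B cell and receptor signalling genes tested, 11 were higher under A than C in limma, among them Vpreb3 (1.61, adjusted p = 0.00034) and Fcrl1 (1.57, 0.0026). A further 9 were lower, among them these signalling or regulatory genes, which other blood cells use too: Bcl10, Dok3, Fcgr2b, Lyn, Malt1, Pik3ap1, Plcg2 and Syk. The list's median A to C difference was 0.27. Of 10 genes of the plasma cell secretory machinery, Slamf7 (1.10, 0.0019) and Pim2 (0.35, 0.0023) were higher under A than C. In that list 5 were lower, among them Xbp1, and the median A to C difference was -0.24. Which cells the reads of these 10 genes came from was not tested. Of 11 survival and lymphoid tissue genes tested, 4 were higher: Tnfsf13b, which encodes BAFF (0.69, 0.0018), Ltb (1.00, 0.0079), Cxcr4 (0.68, 0.0013) and Ccl20 (1.37, 0.023). In the same list 3 were lower: the cytokine Il6 (-1.89, 0.00058), Cxcl12 (-0.42, 0.0088) and Ltbr (-0.26, 0.0034). Of 5 germinal centre genes tested, Gcet2 and Mef2b were higher and 2 lower.

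Some genes of other cell types also differed between the letters. These lists are short, and of all genes 22.6% were called higher under A than C and 20.4% lower. Against C, 3 of 5 natural killer cell genes, 3 of 5 dendritic cell genes, 2 of 4 plasmacytoid dendritic cell genes and 3 of 4 endothelial genes were higher under A, 6 of 7 macrophage genes and 5 of 6 alveolar epithelial genes were lower, and no proliferation gene of 5 was called. The summed alveolar genes had medians of 1857160 in A, 2656576 in B and 2722977 in C, and were 1261003 in A11. Their part in the differences of the B cell genes was not tested.

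By a fixed rule, the 15 genes outside the set with the highest correlation to the mean level of Cd79a, Cd79b and Ms4a1 over the 30 tumours were listed. Over the 24 tumours of the 12 lower pairs, correlations were 0.81 for Fcrl1, 0.80 for Rasgrp1, 0.80 for Ptprcap and 0.79 for Prkcb. Also listed were Gimap3 (0.77), Ikzf3 (0.75), Pyhin1 (0.74), Ltb (0.74), Gm8369 (0.73), Itgb7 (0.73), Gpr18 (0.68), Tbc1d10c (0.64) and AB124611 (0.63). All 15 had their highest value in A11, A20 or A50, which follows largely from choosing them over these same 30 tumours. These are descriptions over tumours that share mice, letters and depth of sequencing.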

How the data were processed

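Per the labels' protocols, RNA from 30 mouse lung tumours was column-purified and made into TruSeq v2 libraries. The submitters' processing notes list DESeq 1.14.0, TopHat 1.3.3, HTSeq and the build mm9 without their roles. The deposited table holds normalized values per gene (a signal scaled by the authors for depth). In every column 100.0% of values were whole multiples of the value of 1 read, within 0.001, so read counts could be recovered from what the authors deposited.

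Columns were assigned only to the tumour group as a whole, since no source gives the key to the letters. Values were taken as log2(value + 1), averaged per pair and tested with limma 3.58.1 (R 4.3.3) over 15210 genes with a mean value of at least 5. edgeR 4.0.16 (quasi-likelihood, TMM) on summed recovered reads was an alternative chosen after seeing the data, as were the index run covariate, the omission of A1, A2 and A5, and the B and C pairs alone. Other alternatives were pseudocounts of 0.5 and 5, filters of 0 and 20, rescaled columns, a random block for pairs and leaving out each pair. Permutation tests used numpy 2.4.6. The fits were tested on simulated data. The 33 genes, the gene lists and the tests were chosen with earlier results of these data known. All 33 are named; 13 of them, and each one called, were given fuller values by rule, and of other genes the 15 nearest and those of the lists that passed a test were counted or named. A few genes of the lists are not reported here.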

Additional observations from a re-analysis of the deposited data

Results flagged for a closer look

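Each of the 33 genes was examined within each letter's 10 tumours, 99 groups in all, with Dixon's gap criterion for a highest or lowest tumour set apart from the others on the log2 scale. Chance alone marks about 1 group in 20, and 5 were marked. Cxcl13 in A11 was 1475 (1474.634), far above the other letter A tumours, with a gap to the next tumour of 0.50 of the group's range. Pou2af1 in B50 was 234 (gap 0.62), in the same tumour in which 8 members were at least 2-fold above their median. Ebf1 in C21 was 33.8 (gap 0.62) and Pax5 in C50 was 18.2 (gap 0.53), each the highest of letter C. Pou2f2 in C41 was 9.43, the lowest of letter C (gap 0.61).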

How the results depend on the processing

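No paired analysis was possible because no source links a column to a mouse or pairs mice across letters; the 2 tumours of a pair were averaged, and with pairs as a random block of the 30 tumours 7300 genes and 28 members were called over the letters (6465 and 23 in the design chosen). With the index run as a covariate, 1267 genes and 0 members were called over the letters, 0 members between A and B and 0 between A and C, and the Cd79b A to C difference reversed to -0.047. Without A1, A2 and A5 these counts were 1283 genes, 1, 0 and 2 members. edgeR called 19 members between A and B, against 12 in limma. Leaving out 1 pair at a time gave 5135 to 6916 genes and 16 to 28 members over the letters, 0 to 21 members between A and B, 21 to 27 between A and C, and 0 to 13 genes and 0 to 1 members related to Cd79a. That relation, with 10 genes and 1 member, fell to 0 genes and 0 members with a pseudocount of 5, with no filter, with values centred within letters, without the 2 farthest pairs and over the 10 B and C pairs. For the A to B and A to C counts with 1 pair left out, shares of all genes were not kept. Why the counts in this section changed was not tested. Under the other pseudocounts, filters and scaling, counts over the letters and between pairs stayed within 1.5 times. Members near 1 read are limited by depth.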
